A study of Arabidopsis thaliana with 44 samples.

Results

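The leucine-rich repeat receptor kinase genes of Arabidopsis thaliana were taken from the Agilent 22 K microarray as all non-control probes whose description held the words leucine-rich repeat (with or without the hyphen) and kinase. This rule used the text of the probe descriptions and no measured value, and it found 131 of 21500 probes, each for a different locus. Their loci lay on all 5 chromosomes, with 36, 19, 25, 14 and 37 genes on chromosomes 1 to 5. A further 38 probes had leucine-rich repeat in the description but not kinase and were left out. The study compared platforms for gene expression analysis on shared RNA samples, and 12 of its Agilent microarrays were used here. Of these, 8 were self-self microarrays, on which both dyes carried the same RNA, from actively growing callus, from inflorescence (immature buds of mixed stage), from untreated 21 day leaves and from untreated 21 day roots. The other 4 were non-self microarrays. On the root/leaf microarrays red carried root and green carried leaf RNA, and on the silique/inflorescence microarrays red carried silique RNA collected 24 to 48 hr after fertilization and green carried inflorescence RNA. The labels gave no ecotype, genotype or number of plants for these samples. Each kind of microarray had 2 technical replicates, A and B, of 1 RNA sample. Every p-value here therefore measures the spread between technical replicates only and says nothing of variation between plants.

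Leucine-rich repeat receptor kinases are the largest family of receptor-like kinases in plants. An outer domain of repeated leucine-rich units binds a peptide, a steroid or a microbial molecule, usually together with a shorter co-receptor of the same family, and a kinase domain inside the cell passes the signal on. Known members sense brassinosteroids, bacterial flagellin, peptides released on wounding, and the secreted peptides that set the size of meristems, the growth of vascular tissue, the shedding of flower organs and the path of the pollen tube. Many other members have no known ligand. Members without a plain name in the reference table appear here by locus only, whether or not a ligand is known.

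The labelled tissues were first set against marker genes. On the root/leaf microarrays all 4 leaf markers were higher in leaf and all 5 root markers higher in root. On the silique/inflorescence microarrays all 4 anther and pollen markers were higher in inflorescence and all 4 fruit and ovule markers higher in silique. One microarray stood apart. Abundance on self-self microarrays is given in Normalized Expression Units (NEU), the signal of a probe averaged over both channels and divided by the sum over all probes, times 1000000. The 4 leaf markers summed to 2091 NEU on root A but to 153 NEU on root B, against 4220 and 4368 NEU on the leaf microarrays, while the root markers summed to 218 and 245 NEU on root A and root B. On root A the signal of RCA (Rubisco activase) was 62426 in green and 13334 in red, although both channels carried the label root. Over all probes the red over green ratio of root A correlated with the root/leaf ratio of the non-self microarrays (r = 0.62 over 20808 probes), and over 129 receptor kinase genes the correlation was 0.57. On root B the same correlations were 0.00 and 0.00. Results on root abundance are therefore given with and without root A. All 4 flower markers were called highest in inflorescence on the self-self microarrays, and 3 were called higher in inflorescence than silique. Of these markers PI also had 267 and 208 NEU in callus, against 518 and 429 NEU in inflorescence. AG, AP3 and SEP3 had at most 5.18 NEU in callus. No marker of callus was fixed, so the callus label was not set against a marker. Callus and inflorescence microarrays were processed by the scanner software on another day than leaf and root microarrays, so differences between those pairs of tissues cannot be told apart from that day. The silique/inflorescence microarrays were dimmer, with 70.5% and 76.0% of red spots well above background against at least 97.4% on all other microarrays.

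The receptor kinase genes found by the description rule leaned towards root. Of 129 genes tested on the root/leaf microarrays, 75 were higher in root and 33 higher in leaf, that is 58.1% and 25.6%, against 39.1% and 30.8% of all 21030 probes tested. In either direction 83.7% of the genes and 70% of all probes were called. With a difference of at least 2-fold as well, 28 genes were higher in root and 13 higher in leaf (21.7% and 10.1%, against 11.7% and 10.9% of all probes). The median log2 ratio of root over leaf was 0.31 over the receptor kinase genes and 0.03 over all probes. The ratios were also wider, with a median absolute log2 ratio of 0.72 against 0.38. A call required an adjusted p under 0.05 in limma, with Benjamini-Hochberg adjustment over all tested probes. With another background correction and loess in place of the scanner software's normalization, 18 genes in place of 28 were at least 2-fold higher in root. A further 2 genes, PRK4 and GSO1, had an outlier spot and were not tested. The lean was not seen in characterised receptors whose description did not meet the rule. Of 30 of these tested, 9 were higher in root and 17 higher in leaf.

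**Figure D1:**
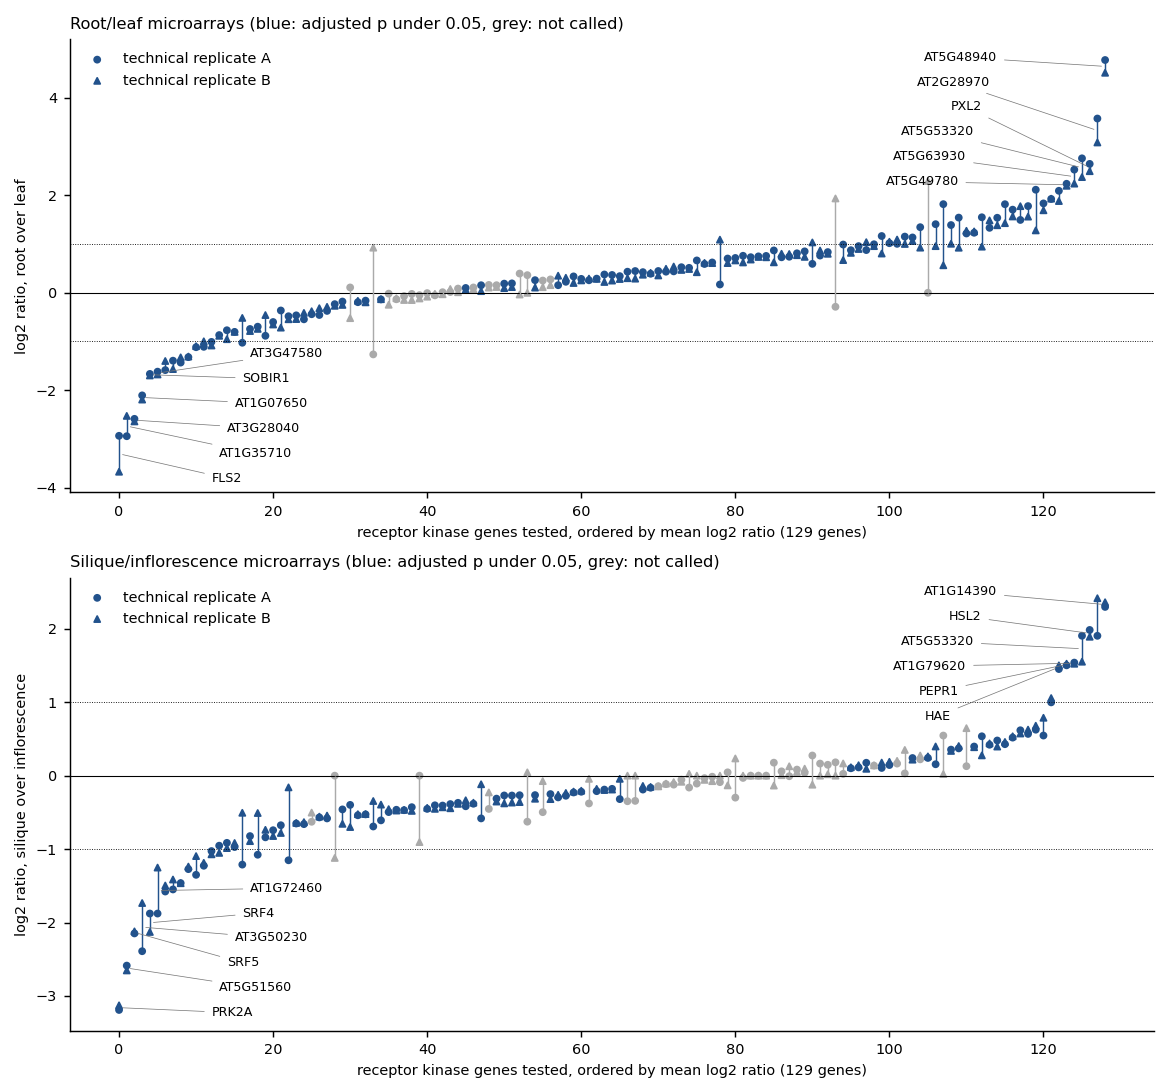
Log2 ratios of the 129 receptor kinase genes tested on root/leaf microarrays (upper panel) and the 129 tested on silique/inflorescence microarrays (lower panel), each gene drawn as technical replicates A and B joined by a line, in order of the mean. Blue marks an adjusted p under 0.05 and dotted lines mark 2-fold. AT5G48940 stood highest in root at 4.78 and 4.52, FLS2 lowest at -2.94 and -3.67, and PRK2A lowest in silique at -3.19 and -3.13.

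AT5G48940, a receptor kinase with no name in the reference table, had the largest root excess of the genes tested. Its log2 ratio of root over leaf was 4.78 on replicate A and 4.52 on replicate B. The mean was 4.65 ± 0.12 (moderated SE), or 25.1-fold (adjusted p = 1.4e-08 in limma). Each SE given here is the moderated one of limma, which draws on the spread between technical replicates of all microarrays in the fit. For the ratios these include root A, and no ratio fit was run without it. The self-self microarrays gave it 44.0 and 54.5 NEU in root and 73.0 and 84.0 NEU in callus, but only 1.70 and 2.36 NEU in leaf and 1.66 and 1.5 NEU in inflorescence. The callus and root values lay far above those of leaf and inflorescence, with no overlap.

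AT2G28970 was 10.1-fold higher in root (log2 ratios of 3.58 and 3.09, adjusted p = 5.1e-06), and its leaf signal was well above background on 1 of 2 microarrays only. PXL2, a relative of the PXY receptor that keeps the vascular cambium dividing, was 5.94-fold higher in root (2.65 and 2.50, adjusted p = 4.7e-08). AT5G53320 was 5.93-fold higher (2.76 and 2.37, adjusted p = 3.9e-07). All these genes were well above 2-fold on each technical replicate. AT5G63930 was 5.22-fold and AT5G49780 4.65-fold higher in root, with adjusted p of 4.6e-08 and 0.00090. With the other background correction and loess, AT5G48940 was 13.2-fold, AT2G28970 3.30-fold and AT5G49780 2.89-fold higher in root, each still called.

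The 13 genes at least 2-fold higher in leaf included FLS2, SOBIR1, HAE, FEI1 and RKL1. FLS2, the receptor of bacterial flagellin, had log2 ratios of -2.94 and -3.67, a mean of -3.31 ± 0.37 (moderated SE), so that it was 9.89-fold higher in leaf (adjusted p = 6.2e-05). SOBIR1, a kinase that serves receptor-like proteins in immunity and cell death, had log2 ratios of -1.67 and -1.70 and was 3.21-fold higher in leaf (adjusted p = 6.1e-07). Both genes lay below 0 on both technical replicates. AT1G35710 was 6.66-fold, AT3G28040 6.13-fold, AT1G07650 4.44-fold and AT3G47580 3.14-fold higher in leaf, with adjusted p between 3.7e-08 and 0.00021. With the other background correction and loess AT3G47580 was 1.69-fold higher in leaf and still called.

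The direct and the self-self ratios of root over leaf had the same sign for 112 of 123 genes, and for 110 without root A. Over 123 genes measured on both kinds of microarray, the log2 ratio of root over leaf had a Pearson correlation of 0.93 between them, and of 0.91 without root A. These are correlations across genes of 1 pair of RNA samples and are given as a description. Of 41 genes called with at least 2-fold on the root/leaf microarrays, 40 had the same sign on the self-self microarrays. The exception was PRK3, a pollen receptor-like kinase, at 1.23 on the root/leaf and -0.24 on the self-self microarrays. Its leaf signal was well above background on 1 of 2 root/leaf microarrays only, its ratio was 0.28 with the other background correction and loess, and without replicate A it was 0.92 and no longer called (adjusted p = 0.052).

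The same genes leaned towards inflorescence when inflorescence was set against silique. Of 129 genes tested, 28 were higher in silique and 61 higher in inflorescence (21.7% and 47.3%), against 32.9% and 32.6% of all 21285 probes tested. In either direction 69% of the genes and 65.5% of all probes were called. With at least 2-fold, 8 were higher in silique and 14 higher in inflorescence (6.2% and 10.9%, against 7.68% and 8.01%). The median log2 ratio of silique over inflorescence was -0.18, and it was 0.00 over all probes. On both of these microarrays the silique signal of 22 genes was not well above background, and that of 4 more was not above background in either channel. Those 22 held 12 of the 61 genes called higher in inflorescence, 6 of the 14 at least 2-fold higher, and 3 of the 28 called higher in silique. Where the silique signal was not well above background, the fold is given against a floored silique signal. This was the higher of the silique signal and the lowest signal that counted as above background on that microarray. That lowest signal came from any probe, so the fold is no lower bound. For SRF4, PRK5 and SRF2 it equalled the measured ratio. With genes not well above background in both channels left out, 8 in place of 14 genes were at least 2-fold higher in inflorescence. With the other background correction and loess, 6 were, and 3 in place of 8 were at least 2-fold higher in silique. The anther and pollen markers moved the same way as the genes higher in inflorescence, all 4 of 4. They summed to 479 and 545 NEU on the inflorescence microarrays and to between 17.8 and 104 NEU on the other self-self microarrays, and their part in these differences was not tested. On the self-self microarrays 3 of the 4 were called highest in inflorescence. A9 went the other way, with 89.1 and 99.3 NEU in root against 61.7 and 60.6 NEU in inflorescence.

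PRK2A, a receptor-like kinase of pollen, fell the most between inflorescence and silique. Its log2 ratios of silique over inflorescence were -3.19 and -3.13, a mean of -3.16 ± 0.08 (moderated SE), and it was 8.93-fold higher in inflorescence (adjusted p = 1.6e-08). AT5G51560 followed at -2.59 and -2.65, 6.14-fold higher in inflorescence (adjusted p = 3.8e-09). Both were above background in both tissues. SRF4, SRF5, AT3G50230 and AT1G72460 were called higher in inflorescence with a silique signal not well above background. Against the floored silique signal they were 4.01-fold, 3.88-fold, 3.51-fold and 2.69-fold higher. The adjusted p of their ratios were 9.2e-07, 0.0017, 1.9e-06 and 0.038. SRF4 and SRF5 belong to the STRUBBELIG-receptor family. AT1G72460 lost the call with a dye term (adjusted p = 0.11), without replicate A (0.24) and without replicate B (0.089). With the other background correction and loess the differences were smaller but still called, at 4.75-fold for PRK2A, 1.67-fold for SRF4, 1.53-fold for SRF5, 1.46-fold for AT3G50230 and 1.3-fold for AT1G72460.

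The genes higher in silique included both receptors of flower organ shedding. HSL2 had log2 ratios of 1.98 and 1.89 and was 3.83-fold higher in silique (adjusted p = 4.4e-09). HAE (HAESA), which acts with HSL2 as a receptor of the abscission peptide IDA, had ratios of 1.45 and 1.5 and was 2.78-fold higher (adjusted p = 5.3e-08). Each pair of replicates was far above 0. AT1G14390 was 5.03-fold, AT5G53320 3.31-fold and AT1G79620 2.89-fold higher in silique, and PEPR1, a receptor of the Pep peptides released on wounding, was 2.85-fold higher (1.5 and 1.52), with adjusted p between 9.9e-09 and 5.4e-06. With the other background correction and loess AT1G14390 was 1.64-fold and AT5G53320 1.49-fold higher, each still called. AT1G66830 had a log2 ratio of 2.16, but each channel was well above background on 1 of 2 microarrays only.

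On both kinds of non-self microarray, 7 genes were called with a difference of at least 2-fold. AT1G14390, AT1G79620 and AT5G53320 were higher in root than leaf and in silique than inflorescence. AT1G35710 and AT3G28040 were higher in leaf and in inflorescence, AT1G35710 with a silique signal not well above background. HAE was higher in leaf and in silique, and AT3G50230 higher in root and in inflorescence. These 7 genes filled all 4 combinations. The share of all probes that did so was not counted, so these numbers are a description only. With the other background correction and loess, AT1G14390, AT5G53320, AT1G35710 and AT3G50230 were under 2-fold between silique and inflorescence, at 1.64-fold, 1.49-fold, 1.35-fold and 1.46-fold. Under the same setting AT1G79620 and AT3G50230 were under 2-fold between root and leaf, at log2 ratios of 0.86 and 0.98.

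**Figure D2:**
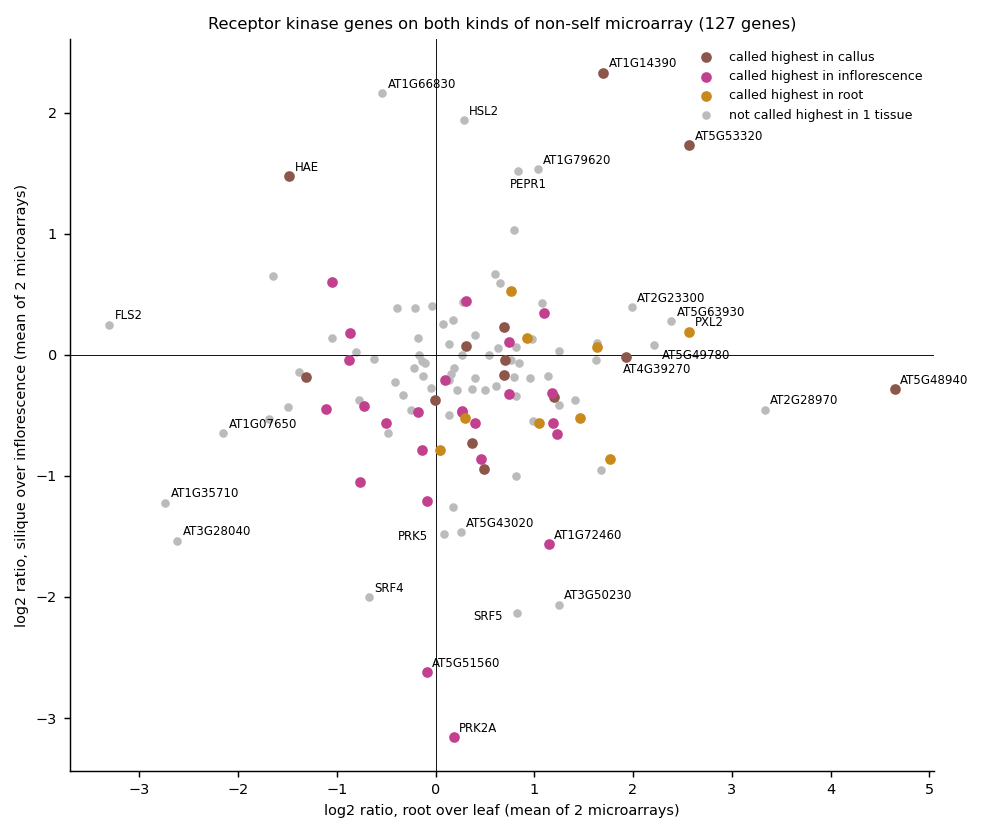
Mean log2 ratio of root over leaf (horizontal axis) against mean log2 ratio of silique over inflorescence (vertical axis) for the 127 receptor kinase genes tested on both kinds of microarray, coloured by the tissue in which a gene was called highest on self-self microarrays. AT5G48940 lies far to the right at 4.65, PRK2A at the bottom at -3.16, and HAE at the upper left at -1.48 and 1.48.

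The self-self microarrays gave the abundance of each gene in 4 tissues. A gene was called highest in a tissue when it was above each of the other 3 with an adjusted p under 0.05. Of 124 genes tested, 25 were highest in inflorescence, 14 in callus, 9 in root and 0 in leaf, or 20.2%, 11.3%, 7.26% and 0%. Over all 19672 probes tested the shares were 7.35%, 9.2%, 6.31% and 2.77%. The remaining 7 genes had an outlier spot on at least 1 of the 8 microarrays. At an unadjusted p under 0.05, 3 genes (AT1G35710, SRF2 and SRF6) were highest in leaf, against 4.02% of all probes. The median gene was 3.43-fold brighter in its brightest than in its dimmest tissue, against 2.74-fold over all probes, and 48.4% of the genes were dimmest in callus, against 35.3% of all probes.

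The counts by tissue rested on single microarrays to a varying degree. Without inflorescence A or inflorescence B, 15 and 14 genes were highest in inflorescence and 5 and 5 in root. Without callus B, 9 were highest in callus, and without root B, 4 in root. Without inflorescence A or root B, 1 gene was highest in leaf. Leaving out root A gave 8 genes in root, of which 6 were among the 9, and 2 in leaf, FLS2 and AT1G35710. FLS2 had 25.6 and 22.3 NEU in leaf, 12.2 and 15.4 in inflorescence, 1.39 and 1.63 in callus, 3.76 on root A and 1.19 on root B. AT1G35710 had 27.1 and 26.5 NEU in leaf, 7.53 on root A and 1.16 on root B. For both genes root A lay above root B, which is also where the leaf markers lay. With the slide series as a fixed block, a term that rests on the 2 leaf microarrays, 5 genes were highest in callus and 14 in inflorescence. Scaling to the 75th percentile left 4 in root.

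SKM1, a receptor of a CLE peptide in pollen tubes, was the gene that stood out most in callus. It had 273 and 244 NEU in callus, 65.7 and 71.1 in root, 39.8 and 46.5 in leaf, and 18.2 and 19.6 in inflorescence. Callus was at least 3.78-fold above each other tissue (largest adjusted p = 0.00023). RLK7, a receptor of a secreted stress peptide, had 970 and 786 NEU in callus and between 68.7 and 315 NEU elsewhere, a smallest difference of 3.17-fold (largest adjusted p = 0.0020). None of the replicates of another tissue reached the callus range for either gene. PSKR1 and PSKR2, the receptors of the sulfated growth peptide phytosulfokine, were both highest in callus. PSKR1 had 22.1 and 28.7 NEU there against 5.78 to 9.16 elsewhere, and PSKR2 had 48.6 and 51.2 against 9.64 to 18.0. Their smallest differences were 2.84-fold and 2.78-fold. HAE was highest in callus as well, at 57.1 and 61.0 NEU against 35.9 and 33.1 in leaf. The other callus genes were AT1G06840, AT1G14390, AT1G25320, AT1G74360, AT3G47570, AT4G39270, AT5G45780, AT5G48940 and AT5G53320. Without root A, AT4G39270 and AT5G48940 were no longer called highest in callus. Of the 14 callus genes, 11 were also called higher in root than leaf and 2 higher in leaf, against 39.1% and 30.8% of all probes. The root/leaf and self-self microarrays carry the same RNA samples, so this is no independent test.

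PRK2A again headed the inflorescence genes. It had 36.4 and 35.6 NEU in inflorescence and between 2.24 and 4.06 NEU on the other 6 microarrays, a smallest difference of 9.5-fold (largest adjusted p = 8.6e-05). GSO2, a receptor of the peptides that seal the embryo surface and the root endodermis, had 23.8 and 24.7 NEU in inflorescence and 1.01 to 4.68 NEU elsewhere (5.91-fold, largest adjusted p = 0.0018). AT1G72460 had 1.75 and 1.91 NEU in inflorescence and no more than 0.418 NEU elsewhere (4.88-fold). A fold over values this low is uncertain, and its log2 ratio of root over leaf was 0.00 on replicate A and 2.29 on replicate B. For all 3 genes the inflorescence values lay apart from every other tissue. PXC1, named for a part in secondary cell walls of the xylem, had 153 and 185 NEU in inflorescence and 9.48 to 69.4 elsewhere. RKL1 had 355 and 407 NEU in inflorescence against 136 and 168 in leaf, the next brightest. Of the 25 inflorescence genes, 18 were also called higher in inflorescence than silique and 4 higher in silique, against 32.6% and 32.9% of all probes tested there. Both kinds of microarray carry the inflorescence sample, so this is no independent test.

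PXL2 was the clearest root gene. Its abundance was 45.7 and 44.9 NEU in root, 6.53 and 7.19 in leaf, 6.89 and 6.13 in inflorescence and 3.52 and 1.67 in callus, so that root stood at least 6.61-fold above the others (largest adjusted p = 0.0019). AT5G24100 had 28.5 and 34.4 NEU in root and 3.68 to 13.0 elsewhere (2.75-fold). BRL2, a relative of the brassinosteroid receptor BRI1 known from leaf veins, had 49.5 and 49.7 NEU in root and 7.34 to 20.8 elsewhere (2.67-fold). All 3 were still called highest in root without root A, and so were PSY1R, AT4G37250 and AT5G41180. PSY1R, the receptor of a sulfated peptide that promotes cell growth, had 25.2 and 31.3 NEU in root against 12.7 and 11.6 in leaf and was 2.76-fold higher on the root/leaf microarrays (adjusted p = 6.9e-07). The other root genes were AT1G64210, AT4G37250, LRR1, AT5G41180 and SKM2, of which AT1G64210, LRR1 and SKM2 lost the call without root A, while MRH1 and AT1G79620 gained it. Of the 9 root genes 8 were called higher in root than leaf on the root/leaf microarrays, against 39.1% of all probes, and these carry the same RNA samples, so this too is no independent test. SKM2 was the exception, at a log2 ratio of 0.05.

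**Figure D3:**
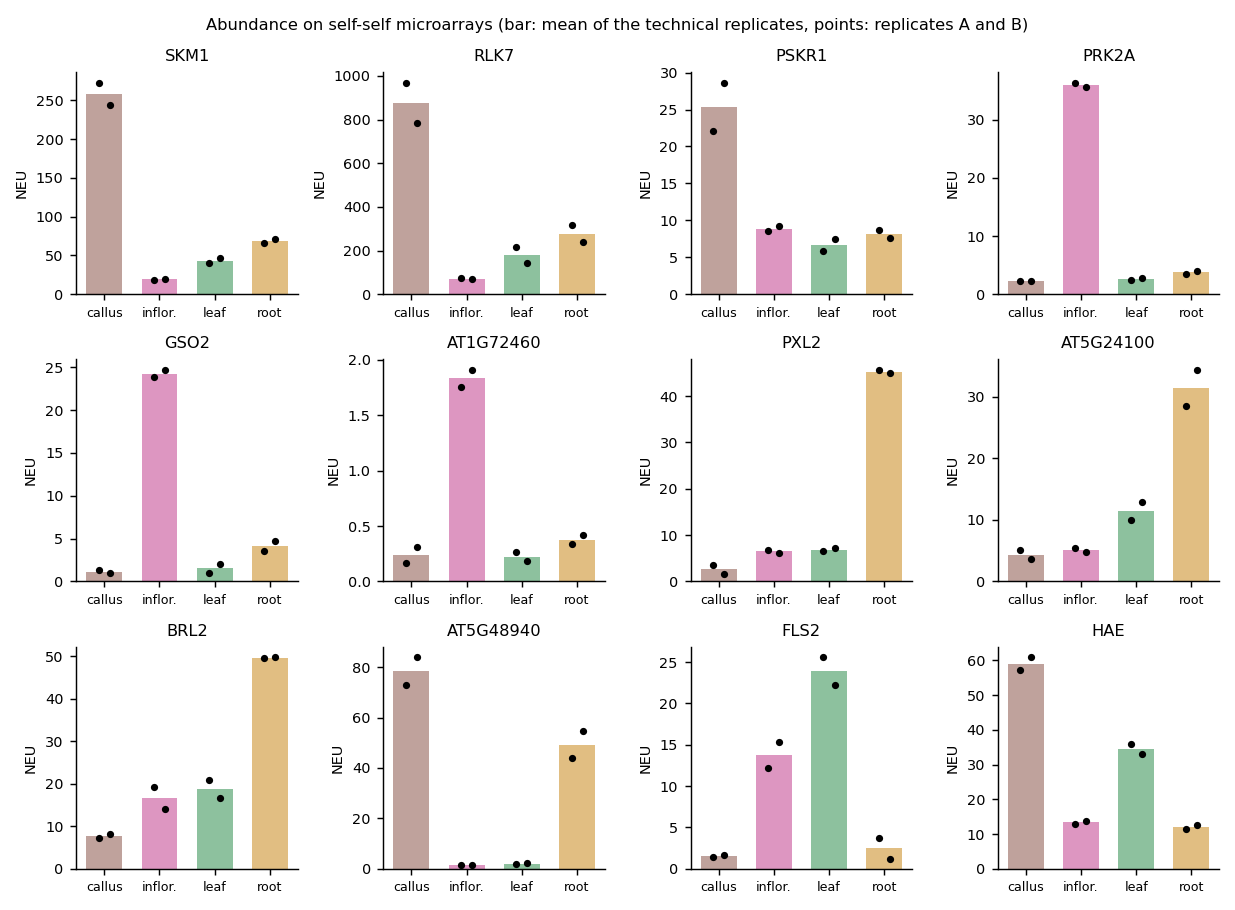
Abundance in NEU (vertical axis, linear from 0, a separate scale for each gene) of 12 receptor kinase genes on the self-self microarrays of callus, inflorescence, leaf and root. Bars are the mean of the technical replicates and points are replicates A and B. SKM1, RLK7 and PSKR1 peak in callus, PRK2A, GSO2 and AT1G72460 in inflorescence, and PXL2, AT5G24100 and BRL2 in root, while FLS2 is brightest in leaf at 25.6 and 22.3 NEU.

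Characterised receptors made up 33 of the 131 genes. Of 31 tested on the root/leaf microarrays, 16 were higher in root, 11 higher in leaf and 4 were not called, against 39.1% and 30.8% of all probes higher in root and in leaf. On the silique/inflorescence microarrays 32 were tested, 3 were higher in silique, 17 higher in inflorescence and 12 were not called, against 32.9% and 32.6% of all probes. Another 31 receptors of the same lists, among them BRI1, BAK1, CLV1 and ERECTA, had a probe whose description did not meet the rule. Of 30 of these tested on the root/leaf microarrays, 9 were higher in root and 17 higher in leaf. Of 30 tested on the silique/inflorescence microarrays, 12 were higher in silique, 14 higher in inflorescence and 4 were not called. The difference between these and the described genes was not tested.

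On the root/leaf microarrays the immune receptors divided between leaf and root, in which 30.8% and 39.1% of all probes were called higher. FLS2, SOBIR1 and EFR, the receptor of the bacterial elongation factor EF-Tu, were higher in leaf, and PEPR1, PEPR2 and RLK7 higher in root. EFR had log2 ratios of -1.03 and -0.52 (1.71-fold, adjusted p = 0.00092), and PEPR2, the second Pep receptor, had 1.5 and 1.78 (3.11-fold higher in root, adjusted p = 1.6e-07). PEPR1 lay at 0.99 and 0.67. The microbe receptors and the Pep receptors thus had opposite signs on every replicate. PROPEP1, the precursor of a Pep peptide and no receptor, had a log2 ratio of 1.49 for root and 3.24 for silique. Between silique and inflorescence only PEPR1 was higher in silique, SOBIR1, EFR and RLK7 were higher in inflorescence, and EFR lost the call under 4 settings, with adjusted p between 0.053 and 0.16. The log2 ratios of FLS2 (0.25 ± 0.37, SE) and PEPR2 (0.10 ± 0.07, SE) were not called. On the 8 self-self microarrays none of these 6 genes was called highest in leaf or root, and RLK7 was highest in callus. The mean NEU was highest in leaf for FLS2 only and in root for none of them. SOBIR1 had 139 and 116 NEU in callus against 102 and 91.6 in leaf, and PEPR1 had 78.3 and 71.7 in callus against 21.8 and 26.5 in root.

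Peptide receptors of meristems and vascular tissue had 3 genes higher in root and 2 higher in leaf, against 39.1% and 30.8% of all probes. BAM3, a receptor of the phloem, had log2 ratios of 1.22 and 1.27 (2.37-fold higher in root, adjusted p = 7.2e-07), and BAM1 had 0.52 and 0.47. BAM2, their close relative, had the opposite sign at -0.74 and -0.79 (1.70-fold higher in leaf, adjusted p = 4.4e-07). RPK2, which acts in shoot meristems and anthers, lay at -0.23 and -0.27. BAM2 was also highest in inflorescence, at 62.3 and 57.8 NEU against 34.3 and 29.6 in leaf, and 2.07-fold higher in inflorescence than silique. BAM1 had between 45.9 and 64.1 NEU on the 8 self-self microarrays. PXC1, PXC2, PXC3, RUL1 and MOL1, a set put together from reference names after the values were seen, were all higher in root. The share of all probes was 39.1%. RUL1 and MOL1 are named for opposite effects on lateral growth of the stem, and their log2 ratios of root over leaf were 1.67 and 0.62.

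HAE and HSL2 shared the rise in silique but not the leaf excess. HAE was 2.79-fold higher in leaf than root (-1.39 and -1.57, adjusted p = 4.6e-08), and HSL2 was 1.22-fold higher in root (0.29 and 0.28, adjusted p = 0.00016). HSL1, the third gene of that group, was 1.73-fold higher in inflorescence than silique, opposite in sign to both. GSO2 was 2.27-fold higher in root than leaf (1.41 and 0.96). GSO1, which acts with GSO2, had an outlier spot on the root/leaf microarrays and was not tested there. Its self-self values were 11.5 and 12.5 NEU in leaf and 10.4 and 10.3 NEU in root. Its log2 ratio of silique over inflorescence, 0.08 ± 0.05 (SE), was not called, with a silique signal not well above background.

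Receptors of sulfated and other peptides fell into different tissues. PSY1R was highest in root, PSKR1 and PSKR2 in callus and CEPR2, a receptor of the nitrogen-related CEP peptides, in inflorescence, at 75.6 and 67.9 NEU against 44.9 and 33.8 in leaf. CEPR2 was 1.82-fold higher in leaf than root (-0.77 and -0.95). PSKR2 had log2 ratios of 0.01 and -0.03, the smallest mean difference of these 4 genes. Of the phytosulfokine precursors, PSK4 had a log2 ratio of 3.62 for silique and PSK2 one of -2.24, so the 2 precursors had opposite signs.

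All 6 pollen receptor-like kinases of the list met the rule, and 4 were called higher in inflorescence than silique, against 32.6% of all probes. Beside PRK2A they were PRK5 (2.79-fold, adjusted p = 5.9e-08), PRK4 (1.47-fold, adjusted p = 0.00032) and PRK3 (1.22-fold, adjusted p = 0.048). The folds of PRK5 and PRK3 are against the floored silique signal. With the other background correction and loess PRK5 was 1.34-fold higher in inflorescence. PRK3 had ratios of -1.15 and -0.16, and without replicate A its call was lost (adjusted p = 0.69), as it was with a replicate block (0.060) and without the trend (0.051). PRK6, a sensor of the pollen tube attractants from the ovule, had log2 ratios of -0.45 and -0.23 and PRK1 had 0.13 and 0.65. Neither was called, and the silique signal of both was not well above background on either microarray. PRK2A and PRK3 were highest in inflorescence. PRK5 was not, with 8.82 and 8.85 NEU there and 21.5 and 32.4 NEU in root.

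Among the remaining characterised genes, FEI1, a kinase of cell wall synthesis in the root tip, was 2.60-fold higher in leaf (-1.43 and -1.33). MRH1, named for root hair shape, was 1.80-fold higher in root (0.87 and 0.82), and IMK2 1.94-fold. RKL1 and RLK902 are closely related in sequence. Their root/leaf ratios had opposite signs, at -1.12 and -1.10 for RKL1 and 0.43 and 0.49 for RLK902, while both were higher in inflorescence than silique and highest in inflorescence on the self-self microarrays. A 60 nucleotide probe may also bind RNA of such close relatives, which was not tested.

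**Figure D4:**
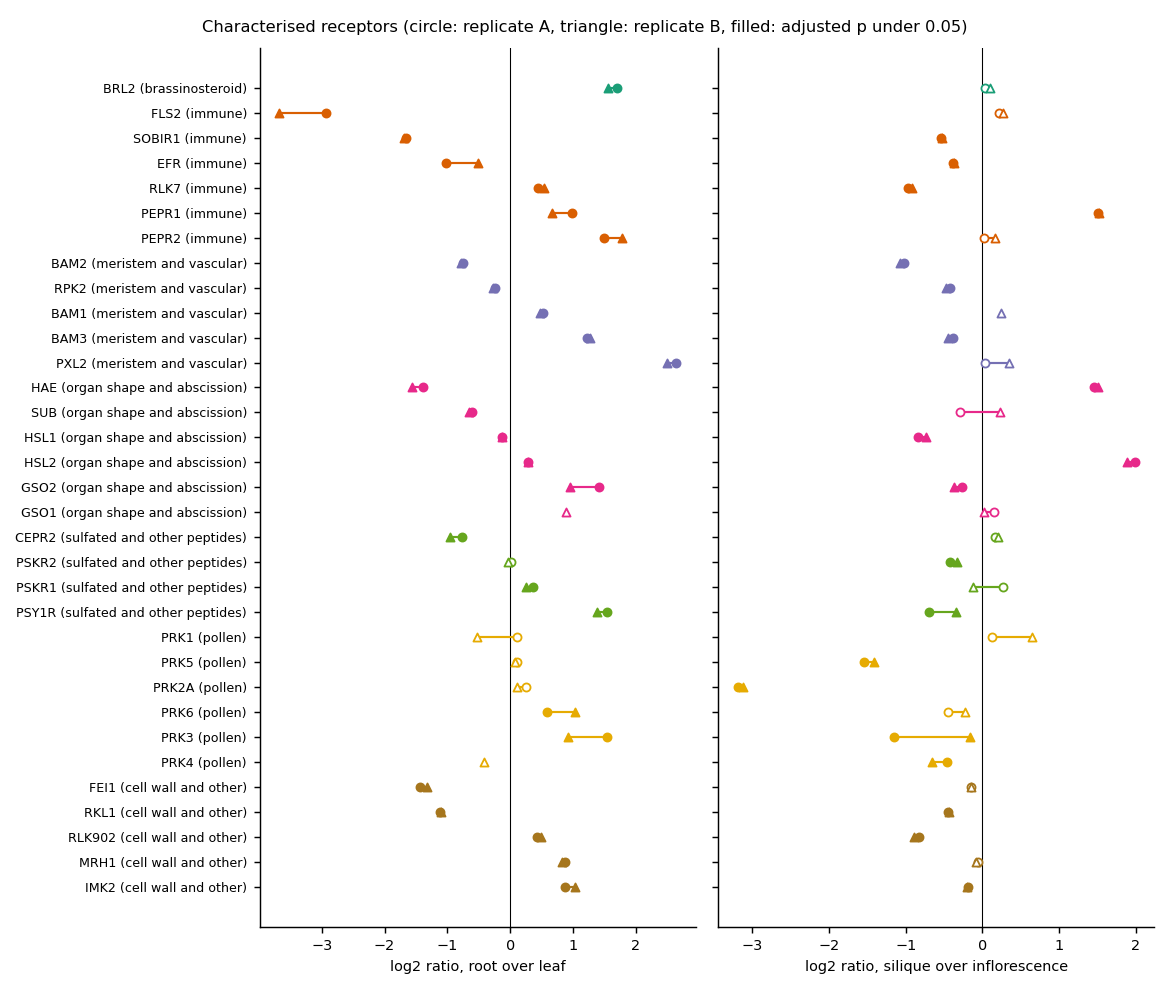
Log2 ratios of the 33 characterised receptors on root/leaf microarrays (left) and silique/inflorescence microarrays (right), grouped and coloured by list. Circles and triangles are technical replicates A and B, and filled symbols have an adjusted p under 0.05. FLS2, SOBIR1 and EFR lie left of 0 and PEPR1, PEPR2 and RLK7 right of 0 in the left panel, and HSL2 and HAE lie above 1.4 in the right panel.

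The STRUBBELIG-receptor family, which shapes organs and cell walls, had 7 genes by reference name, a set also put together after the values were seen. Compared with silique, 4 of the 7 were higher in inflorescence and 0 higher in silique, against 32.6% and 32.9% of all probes. The 4 were SRF4, SRF5, SRF2 (1.73-fold against the floored silique signal) and SRF3 (1.21-fold). Between root and leaf 3 were higher in leaf (SUB, SRF4 and SRF6) and 1 in root (SRF7), against 30.8% and 39.1% of all probes. SUB itself lay at -0.60 and -0.65, and SRF6 at -0.80 and -0.80.

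Some of these genes lie next to each other on a chromosome. In the reference annotation 5 pairs were direct neighbours or had 1 coding gene between them. AT5G49770 and AT5G49780 were both higher in root (0.99 and 2.22), BAM1 and HSL2 too (0.50 and 0.29), and AT5G45780 and MEE62 as well (0.37 and 0.79). AT3G47570 and AT3G47580 were both higher in leaf (-1.32 and -1.65). The last pair, AT3G47090 and AT3G47110, had -0.13, which was not called, and 0.60. Between silique and inflorescence HSL2 had 1.94 and BAM1 was not tested, AT5G45780 and MEE62 were both higher in inflorescence (-0.73 and -0.18), AT5G49770 had -0.55 and AT5G49780 0.08, which was not called, and AT3G47090 had -0.05, not called, against 0.67 for AT3G47110. AT3G47570 and AT3G47580 had opposite signs (-0.18 and 0.65, adjusted p = 0.043 and 0.032), and AT3G47580 lost the call under 4 settings. The silique signals of AT3G47110, AT3G47580 and AT5G49770 were not well above background on either microarray. Such neighbours can be close in sequence, and a share of signal bound by both probes was not tested.

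Ligands, partners and downstream genes of these receptors had a probe for 16 of 18 listed. Of these 16, 3 were higher in root, 7 higher in leaf and 6 were not called, against 39.1% and 30.8% of all probes. BES1, a transcription factor of brassinosteroid signalling, had the lowest log2 ratio of root over leaf at -2.54, and BIN2, BSK1 and BZR1 of the same pathway were higher in leaf too (-0.99, -0.84 and -0.34). CLV2 and CRN, partners in CLAVATA signalling, had 0.01 and 0.02. Between silique and inflorescence 6 were higher in silique, 6 higher in inflorescence and 4 were not called, against 32.9% and 32.6%.

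These are bulk tissue values, in which fewer cells of a type and less RNA per cell cannot be told apart.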

How the data were processed

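The authors deposited the scanner output of Agilent Feature Extraction (version 6.1.1 in the file headers, 7.1.1 for silique/inflorescence microarrays, 8.1 in the submitters' processing notes), with the processed intensity of each channel, and a table of log10 ratios of red over green that equalled the scanner values. Here log10 ratios were turned into log2. The labels' protocol speaks of dye reversal, but no sample's channel labels show a reversed pair, so the direction follows the labelled channels, and the marker genes moved that way. Self-self intensities were averaged over channels and scaled to NEU as in the study's methods. Means were fitted with limma 3.58.1 (R 4.3.3, trend) over 12 microarrays for ratios and 8 for log2 NEU, with Benjamini-Hochberg adjustment over all probes without an outlier spot. The number of microarrays limits the precision. On simulated data, 87% of 200 changes of 1 log2 unit were recovered over 19126 probes on root/leaf microarrays. For abundance highest in callus, 0% were recovered at 1 and 63.5% at 2 log2 units over 19672 probes. Only 200 probes were changed there, while 1809 were called highest in callus in the data, so the adjusted threshold was stricter. Receptor kinase genes called highest in callus had smallest differences down to 1.53-fold, so the 0% is no limit of detection here.

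Named genes were the 6 highest and 6 lowest called ratios per comparison among genes well above background in the brighter channel and unsaturated, the 3 clearest per tissue, and listed receptors. Genes named outside this rule were chosen after their values were seen. Members and lists were chosen with earlier results of these data known. Names came from the TAIR10.1 RefSeq table, which held all 131 loci. Affymetrix and MPSS data were not analysed here for these genes, and sequences and coordinates were not used here. Alternatives were another normalization, dye correction, scaling, filtering and left-out microarrays.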

Additional observations from a re-analysis of the deposited data

How the results depend on the processing

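Of 132 counts recomputed under other settings, 113 stayed within 1.5 times their main value. Background correction with normexp and loess gave 18 genes at least 2-fold higher in root, 3 in silique and 6 in inflorescence, and the filter for spots above background gave 8 in inflorescence. For the genes highest in a tissue, the slide series as a fixed block, added after seeing the data, gave 5 in callus and 14 in inflorescence, 75th percentile scaling gave 4 in root, and 1 gene was highest in leaf with the green channel, the red channel or no trend. Leaving out 1 microarray gave 9 to 14 genes highest in callus, 14 to 25 in inflorescence, 4 to 8 in root and 0 to 2 in leaf. The microarray left alone in its group was assumed to vary like the other groups. Leaving out A or B gave 71 genes higher in root, 30 in leaf, 24 to 25 in silique and 58 to 63 in inflorescence. With at least 2-fold, it gave 28 to 29 in root, 12 to 15 in leaf, 7 to 8 in silique and 14 to 15 in inflorescence. No named gene that was called changed sign on the non-self microarrays, and 3 of 42 on root/leaf and 7 of 35 on silique/inflorescence microarrays lost the call under at least 1 setting. Genes not called changed sign as follows. With the dye term, the root/leaf log2 ratio was -0.069 for PRK5 and 0.25 for PSKR2 (adjusted p = 0.0012 for PSKR2), and the silique/inflorescence ratio of PSKR1 was -0.0185. Without replicate A and without replicate B, the root/leaf ratio was 1.94 and -0.29 for SRF5, -0.52 and 0.11 for PRK1 and -0.031 and 0.012 for PSKR2. The silique/inflorescence ratio was 0.23 and -0.30 for SUB and -0.12 and 0.27 for PSKR1. The cause of these changes was not tested. With another normalization the share of root among all called probes moved from 55.9% to 46.3%, and among the receptor kinase genes from 69.4% to 65.4%.

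The letters A and B did not pair the samples: the deviations of B from A correlated between -0.20 and 0.17 across tissues. With a replicate block, 71 genes were higher in root, 32 in leaf, 28 in silique and 62 in inflorescence, and 14, 26, 0 and 9 were highest in callus, inflorescence, leaf and root. Signal over background was lowest on the silique/inflorescence microarrays, where it limits ratios of dim genes.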
